A study of Mus musculus with 28 samples.

Results

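Microglia from antibiotic-treated 5xFAD mice (FAD_ABX, 6 mice) were compared with microglia from antibiotic-treated wild-type mice (WT_ABX, 5 mice). These 11 mice were chosen by genotype and treatment label out of 28 in the series, and the whole transcriptome was described. The labels list more FAD_ABX mice than the study describes for a condition, and all were used. 5xFAD mice carry transgenes for mutant human amyloid precursor protein and a mutant gamma-secretase subunit, driven by a promoter specific to neurons, and were heterozygous males on a C57BL/6J background. WT mice were littermates without the transgenes. Both groups were raised under specific pathogen-free (SPF) conditions, were 16 weeks old, and were given vancomycin, cefoxitin, gentamicin and metronidazole in drinking water for 8 weeks. CD11b+CD45lo cells were sorted from the brain (the hippocampus, per the study's methods), and each library was made from the RNA of one mouse. The p-values therefore measure the spread between mice. The remaining mice were SPF without antibiotics (3 FAD_SPF, 5 WT_SPF) or germ-free (5 FAD_GF, 4 WT_GF), and were used here to set the 5xFAD effect under antibiotics beside those in the other housings.

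Microglia are the resident macrophages of the brain parenchyma. In the healthy brain they express a homeostatic set of genes such as the purinergic receptor P2ry12 and the surface protein Tmem119. Around amyloid plaques they take on a disease-associated (DAM) profile, in which the receptor TREM2 and its adaptor TYROBP are needed for full induction of Apoe, Axl, Cst7, Lpl, Itgax and other genes of lipid handling, lysosomes and phagocytosis. Antibiotics reduce the gut bacteria of an adult mouse, while germ-free animals never had any.

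The FAD_ABX libraries held 15538689 to 25015029 gene-assigned reads and the WT_ABX libraries 14441610 to 29977395. Values are CPM, the counts of a gene scaled to a library of a fixed size, with library sizes scaled by TMM, a method that aligns the bulk of genes between libraries. Along the first principal component of the 1000 most variable genes, which held 41.8% of the variance, all 6 FAD_ABX mice were separate from the 5 WT_ABX mice. The mouse FAD_ABX_1151 lay nearest to the WT side, at 0.14 against 0.25 to 0.36 in the other 5. The mouse FAD_ABX_1482 stood alone on the second component, which held 16.4% of the variance, at -0.91 against 0.12 to 0.23. This library had reads in 16816 genes, the fewest of the 11, and a mean correlation of 0.934 with its own group against 0.953 to 0.960 for the other FAD_ABX mice. The calls and counts of called genes below were therefore also computed without both mice. The submitters' secondary labels use the mouse number for all 5 WT_ABX mice, for FAD_ABX_1151 and for the SPF mice without antibiotics, and the group name for the other 5 FAD_ABX mice and the germ-free mice. What these styles stand for is not given in the sources used here, and apart from FAD_ABX_1151 they cannot be told apart from genotype under antibiotics. The microglia markers were at high levels in every library, with a summed level of 57888 to 64622 CPM in FAD_ABX and 65088 to 72615 CPM in WT_ABX (sums over marker lists are on library sizes without TMM). With TMM these ranges overlapped, at 56800 to 65500 and 61100 to 71700 CPM. Mouse App lay at 189 to 269 CPM in FAD_ABX and at 170 to 213 CPM in WT_ABX (log2 fold change 0.35, SE 0.085, edgeR adjusted p = 0.00532). The transgene is human and driven in neurons, so this gene is a weak check of the labels.

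Of 15298 genes tested, 1445 (9.45%) were higher and 762 (4.98%) were lower in FAD_ABX than in WT_ABX at an adjusted p under 0.05, together 2207 (14.4%). Leaving out WT_ABX_911 left 452 genes lower, and a fit of these 2 groups alone called 1321 genes in all. The median log2 fold change over all tested genes was -0.01. When libraries were scaled by their size alone, 46.9% of called genes were higher, against 65.5% here, and the median shifted to -0.09. In 716 genes (4.68%) all 6 FAD_ABX mice were above all 5 WT_ABX mice, and in 329 genes (2.15%) all 6 were below. RNA of sorted cells was measured in bulk, so a change in the share of cells of one state and a change in RNA per cell cannot be told apart. The counts of gene lists are read beside those percentages and carry no test of their own. Of the 25 lists in the bar chart, DAM genes had the largest share higher and homeostatic genes the largest share lower.

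**Figure D1:**
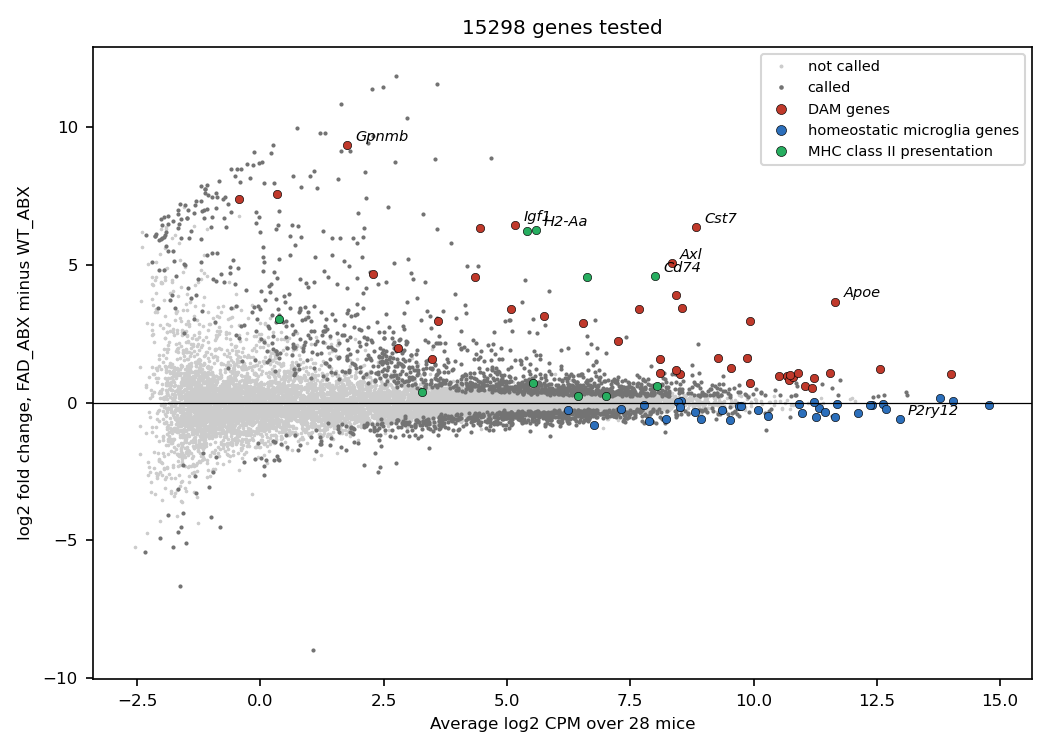
The log2 fold change of FAD_ABX over WT_ABX (vertical axis) is plotted against the average log2 CPM over 28 mice for 15298 tested genes; light grey points were not called, dark grey points were called at an adjusted p under 0.05, and coloured points mark DAM, homeostatic and MHC class II genes. All 41 DAM genes lie above 0, Cst7 at 6.36 and Apoe at 3.67, and P2ry12 lies at -0.59.

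**Figure D2:**
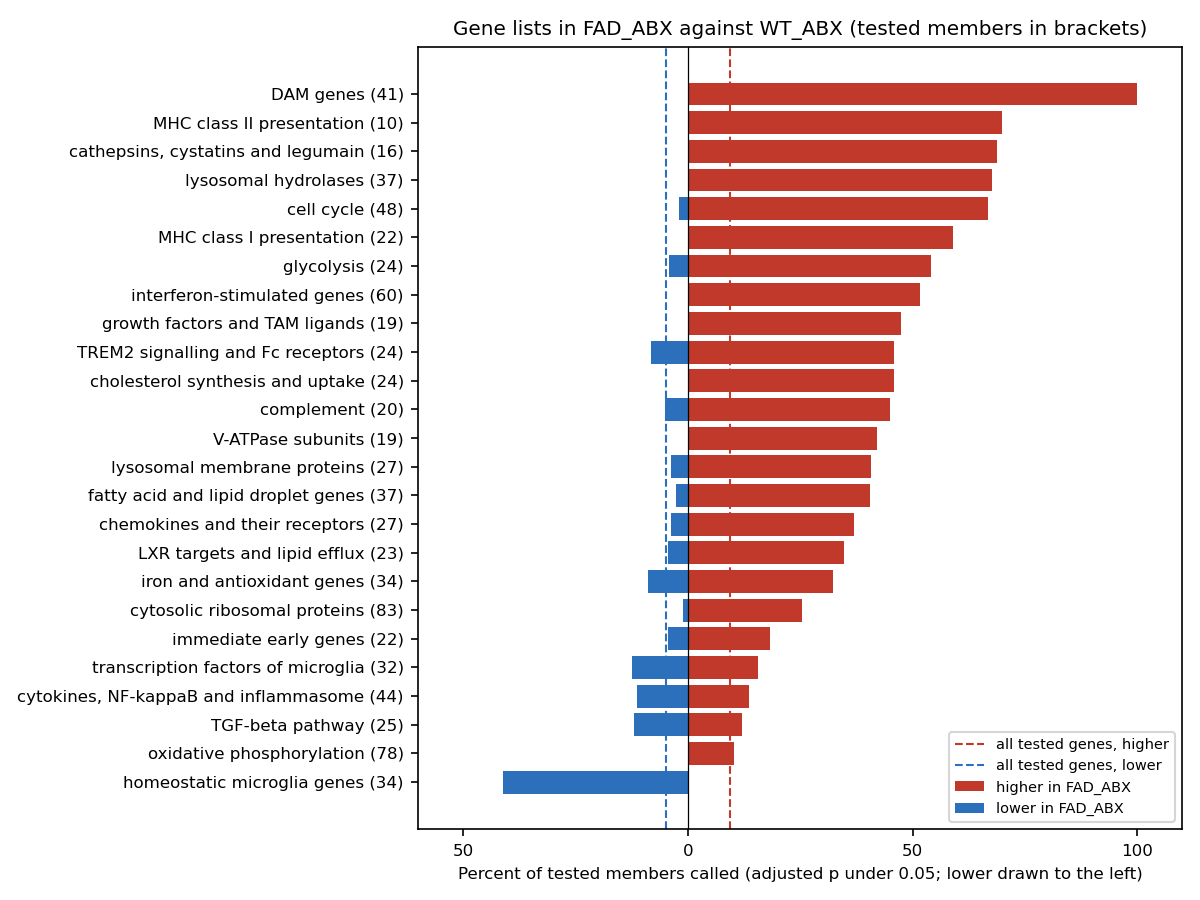
For each gene list, bars give the percent of tested members that were higher (red, to the right) or lower (blue, to the left) in FAD_ABX at an adjusted p under 0.05, with dashed lines at the percents over all tested genes, 9.45 and 4.98. The bar for DAM genes reaches 100% and the bar for homeostatic genes reaches 41.2% on the lower side.

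The DAM signature rose as a whole under antibiotics. All 41 DAM genes measured were higher in FAD_ABX, with a median log2 fold change of 1.63. In 37 of them the 6 and 5 mice did not overlap, and all 41 were still called without FAD_ABX_1151 and FAD_ABX_1482. Of the 41 members, 29 are also members of another list described below.

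Apoe, the lipid carrier at chr7:19696109-19699188 (GRCm38, minus strand), was at 2922, 4163 and 6434 CPM (lowest, median and highest) in FAD_ABX. In WT_ABX the 5 mice had 361, 348, 293, 451 and 311 CPM, so the groups were far apart and FAD_ABX_1151 was the lowest of its group. The difference was 12.7-fold (log2 3.67, SE 0.23, adjusted p = 1.86e-12). Cst7, which encodes the cathepsin inhibitor cystatin F and lies at chr2:150570415-150578944, rose from 5.96 to 10.2 CPM in WT_ABX to between 532 and 777 CPM in FAD_ABX. Its fold change of 82.0 (log2 6.36, SE 0.25) had the smallest adjusted p of the genes named here, 5.18e-17.

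Receptor genes of the pathway rose by between 1.51-fold for Trem2 and 33.7-fold for Axl. Trem2 (chr17:48346401-48354147) had 2006, 2327 and 2754 CPM in FAD_ABX and 1605, 1436, 1310, 1696 and 1662 CPM in WT_ABX. The groups did not overlap, and the difference was 1.51-fold (log2 0.59, SE 0.09, adjusted p = 2.82e-05). Tyrobp, the signalling adaptor of TREM2, was at 1505 to 2287 CPM in FAD_ABX against 808 to 1041 CPM in WT_ABX (log2 0.95, SE 0.13). Axl, a receptor tyrosine kinase for apoptotic cells, had 411, 479 and 763 CPM in FAD_ABX and 14.2, 9.72, 15.6, 22 and 14.6 CPM in WT_ABX, a 33.7-fold rise. Clec7a, the beta-glucan receptor Dectin-1, rose 10.4-fold from 18.2 to 37.8 CPM to between 269 and 342 CPM. Itgax, which encodes CD11c, rose 8.78-fold and Cd9, a tetraspanin, rose by 1.01 on the log2 scale.

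Members that encode secreted proteins rose as well. Igf1 was at 40.6, 51.8 and 61.3 CPM in FAD_ABX and at 0.802, 0, 1.31, 0 and 0.758 CPM in WT_ABX (log2 6.43, SE 0.45, adjusted p = 1.43e-11). Spp1 (osteopontin) reached 20.5 to 58.9 CPM against 0.573 to 4.7 CPM, with FAD_ABX_1151 the lowest of the 5xFAD mice (log2 4.54, SE 0.47, and 5.39 without WT_ABX_911). Csf1, a growth factor for microglia themselves, was higher by 2.88 and the lipase Lpl by 3.89 on the log2 scale. Gpnmb was listed at 0 in all 5 WT_ABX mice and had 1.07, 13.7, 1.39, 4.62, 3.02 and 0 CPM in the 6 FAD_ABX mice. The mouse without a Gpnmb read was FAD_ABX_1482, and the group as a whole was at least 145-fold higher than a floor of 3 counts over the WT_ABX group (at least 70.1-fold without FAD_ABX_1452). Exact two-sided permutation tests of the 6 and 5 mice gave p = 0.00216 for Apoe, Trem2, Tyrobp, Axl, Cst7, Itgax, Cd9, Clec7a, Lpl, Csf1, Spp1 and Igf1, the smallest value that 6 against 5 mice allow, and p = 0.0152 for Gpnmb.

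**Figure D3:**
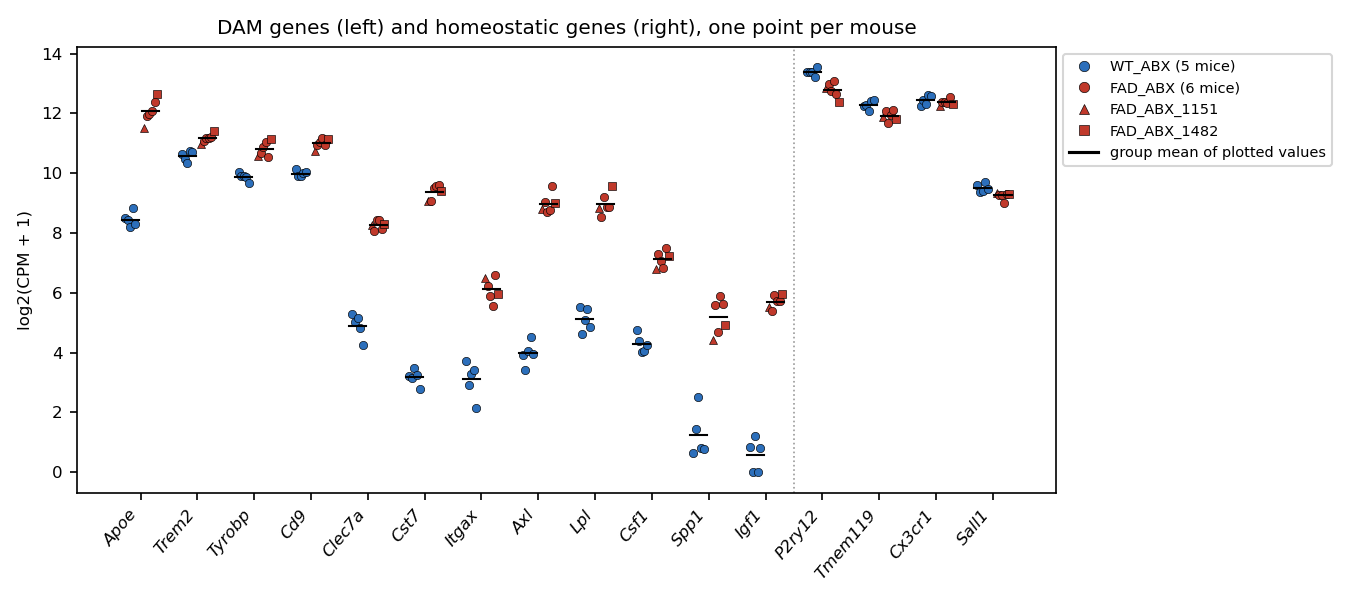
Each point is one mouse, on a log2(CPM + 1) scale, for 12 DAM genes and 4 homeostatic genes; blue is WT_ABX, red is FAD_ABX, the triangle is FAD_ABX_1151, the square is FAD_ABX_1482 and bars are group means of the plotted values. The red and blue points are apart for all 12 DAM genes and overlap for Tmem119 and Cx3cr1.

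Homeostatic genes fell in part. None of the 34 members was higher and 14 were lower, with a median log2 fold change of -0.25, and in 9 the mice did not overlap. Without both mice, 13 were lower. P2ry12, the ADP receptor that guides microglial processes (chr3:59216272-59262871), was at 5285, 7102 and 8654 CPM in FAD_ABX and at 10806, 10580, 10781, 9624 and 11931 CPM in WT_ABX. All 6 5xFAD mice were below the 5 WT mice, FAD_ABX_1482 was the lowest, and the difference of -0.59 (SE 0.10, adjusted p = 6.16e-05) amounts to a level 1.51-fold higher in WT_ABX. The lipid receptor Gpr34 fell by 0.54 on the log2 scale. Tmem119 had 3293 to 4456 CPM in FAD_ABX and 4304 to 5589 CPM in WT_ABX, so the mice overlapped while the change of -0.37 (SE 0.09) was called.

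Other identity genes were not called or were called in only part of the analyses. Cx3cr1, the fractalkine receptor, had 4891 to 6026 CPM in FAD_ABX and 4904 to 6327 CPM in WT_ABX (log2 -0.08, SE 0.08, adjusted p = 0.588). Sall1, a transcription factor of microglial identity, was lower by 0.26 (SE 0.09, adjusted p = 0.0405), a call made in 11 of the 21 alternative analyses, while the exact two-sided permutation test of the 6 and 5 mice gave p = 0.00216, the smallest possible. Rhob, Slc2a5 and Serinc3 lost their calls when both mice were left out.

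Among 24 genes of TREM2 signalling and Fc receptors, 11 were higher and 2 were lower. Besides Trem2 and Tyrobp, the inhibitory receptor Lilrb4a rose by 3.39 and the lipid-binding receptor Cd300lf by 3.00 on the log2 scale. Of the Fc receptors, Fcgr4 rose by 1.00, Fcgr2b by 0.47 and Fcgr3 by 0.22, the last called in 9 of 21 alternatives. The kinase gene Syk (-0.25) and the phospholipase gene Plcg2 (0.14) were not called. The 2 lower genes were the sialic acid receptor Cd33 (-0.31) and the inhibitory receptor Cd300a (-0.24), and both calls depended on the analysis, holding in 10 and 11 of 21 alternatives. Without both mice the call of Cd300a and the higher call of Inpp5d were lost, which left 10 higher and 1 lower.

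Of 20 complement genes tested, 9 were higher and 1 was lower. C4b, a component of the classical pathway (chr17:34728380-34743882), was at 9.48, 21.9 and 31.6 CPM in FAD_ABX and at 1.66, 0.529, 2.56, 1.25 and 1.85 CPM in WT_ABX. The mice did not overlap, FAD_ABX_1151 was the lowest, and the log2 fold change was 3.78 (SE 0.45, adjusted p = 4.64e-07). The central component C3 rose by 4.50 from 10 reads in the whole WT_ABX group, and by 5.81 without WT_ABX_923. Among the C1q genes, C1qb (0.37) and C1qc (0.24, called in 9 of 21 alternatives) were called and C1qa (0.13) was not. Cr1l, a regulator, was lower by 0.28, a call that was lost without both mice.

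Lysosomal genes were higher in FAD_ABX in each of 4 lists. Of the cathepsins, cystatins and legumain, 11 of 16 tested members were higher and none was lower. Of the other lysosomal hydrolases, 25 of 37 were higher and none was lower, with a median log2 fold change of 0.46. Of the V-ATPase subunits, which acidify the lysosome, 8 of 19 were higher, and of the lysosomal membrane proteins 11 of 27 were higher and 1 was lower. Without both mice the numbers higher were 11, 26, 9 and 13, and the one lower call, Laptm4a, was lost.

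Ctsd, the aspartic protease cathepsin D (chr7:142375911-142388038, minus strand), was at 17076, 18660 and 21704 CPM in FAD_ABX and at 9512, 9402, 8525, 9463 and 9520 CPM in WT_ABX. This 2.04-fold rise had a small spread within each group (log2 1.03, SE 0.08, adjusted p = 5.62e-11). Ctsb rose 2.33-fold, from 2862 to 3736 CPM to between 6668 and 10359 CPM. Gusb, which encodes beta-glucuronidase, was at 778 to 1035 CPM against 351 to 403 CPM (log2 1.25, SE 0.09). Pld3, a lysosomal exonuclease, rose by 1.35 and Gla, Gaa and Naglu rose by 1.16, 1.15 and 1.03 on the log2 scale.

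Some lysosomal genes were not called. Lgmn, which encodes the protease legumain, had 2947 CPM in FAD_ABX_1151, 4011 to 4704 CPM in the other FAD_ABX mice and 3810 to 4671 CPM in WT_ABX (log2 0.04, SE 0.09, adjusted p = 0.833). Ctsc (0.11), Ctso (-0.05), Asah1 (-0.03) and Sgsh (-0.26) were not called either. Rab7b, a GTPase of late endosomes, stood at the other end with 20.9 to 36.7 CPM in FAD_ABX and 0 to 2.86 CPM in WT_ABX (log2 4.95, SE 0.59, and 6.00 without WT_ABX_909). Atp6v0d2, an alternative V-ATPase subunit, was listed at 0 in WT_ABX and was at least 29.8-fold higher in FAD_ABX, and its mice overlapped because FAD_ABX_1453 also had no read.

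Many lysosomal promoters carry the CLEAR element, the letters bound by transcription factors of the TFEB family. The heptamer TCACGTG was searched on both strands of the 250 bases before the RefSeq start of each gene (GRCm38.p6), with overlapping matches kept. It was present in 852 of 27025 promoters (3.15%), in 508 of the 10200 promoters of tested genes (4.98%), and in 14 of the 77 promoters matched to tested members of the 4 lysosomal lists (18.2%). Among the 44 matched members that were higher it was present in 9 (20.5%), namely Atp6v1a, Clcn7, Ctsd, Gaa, Gla, Glb1, Lamp1, Naglu and Nagpa. A match describes letters and not binding. The 4 windows of 80 bases that follow show it in capitals, 5′ to 3′ on the strand of the gene, for 3 hydrolases that rose by over 1.00 on the log2 scale and for Lamp1, which carries 4 copies:
Gaa, chr11:119267802-119267881, plus strand: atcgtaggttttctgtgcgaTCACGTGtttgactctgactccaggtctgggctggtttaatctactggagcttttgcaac
Gla, chrX:134601174-134601253, minus strand: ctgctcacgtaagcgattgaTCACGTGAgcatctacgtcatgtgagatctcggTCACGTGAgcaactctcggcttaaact
Naglu, chr11:101070000-101070079, plus strand: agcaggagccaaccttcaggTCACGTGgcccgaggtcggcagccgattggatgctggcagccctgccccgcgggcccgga
Lamp1, chr8:13159079-13159158, plus strand: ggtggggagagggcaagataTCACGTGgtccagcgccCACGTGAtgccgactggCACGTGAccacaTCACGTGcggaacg
Lamp1, the major glycoprotein of the lysosomal membrane, was at 1778 to 2308 CPM in FAD_ABX and at 1241 to 1570 CPM in WT_ABX (log2 0.60, SE 0.08, adjusted p = 1.03e-06), while Gla was at 8.92 to 12.7 CPM against 3.21 to 6.79 CPM.

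Genes of sterol and fatty acid metabolism were higher more often than lower. Of 24 genes of cholesterol synthesis and uptake, 11 were higher and none was lower, with a median of 0.51. The count of higher members was 7 without FAD_ABX_1460 or WT_ABX_909 and 5 without WT_ABX_911. Srebf2, the transcription factor that drives this list (chr15:82147266-82205376), was at 40.9, 51.9 and 61.9 CPM in FAD_ABX and at 16.4, 17.1, 14.9, 17.6 and 22.3 CPM in WT_ABX. All 6 5xFAD mice were above the 5 WT mice (2.93-fold, log2 1.55, SE 0.13, adjusted p = 1.08e-09). Insig1, which holds the SREBP complex in the endoplasmic reticulum, rose by 1.30 and Dhcr7 by 1.10. Sqle had 0.586 CPM in FAD_ABX_1482, 5.63 to 12.1 CPM in the other 5 and 1.45 to 3.66 CPM in WT_ABX, so 5 of 6 5xFAD mice lay above all WT mice (1.43, adjusted p = 0.0205, called in 16 of 20 alternatives). Stard4, a sterol carrier, was called with all mice (2.58, adjusted p = 0.0292) and not without both. A sterol element, the letters TCACNCCAC on either strand of the promoters described above, was present in 1 of 18 promoters matched to tested members (5.56%) and in 0 of the 7 that were higher, against 0.98% of the promoters of tested genes.

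Of 37 tested genes of fatty acid uptake, synthesis and storage, 15 were higher and 1 was lower. Fabp5 (4.67) and Fabp3 (4.79), which bind fatty acids in the cytosol, rose together with the scavenger receptor Cd36 (5.27) and with Fasn (1.55), the fatty acid synthase. Cd36 was at 3.61 to 18.5 CPM in FAD_ABX, while 4 of 5 WT_ABX mice had no read and WT_ABX_909 had 1.43 CPM, without which the fitted change was 10.78. Pparg was called from 40 reads in 3 FAD_ABX mice, with none in WT_ABX, and in 9 of 19 alternatives. Dgat1, an enzyme of triglyceride synthesis, was lower by 0.35. Of 23 tested LXR targets and genes of lipid efflux, 8 were higher and 1 was lower. Besides Apoe these included Ch25h (6.35, and 9.01 without WT_ABX_910), the cholesterol 25-hydroxylase, Pltp (3.59), a phospholipid carrier, and Srebf1 (1.05). The efflux pumps Abca1 (0.14) and Abcg1 (-0.15) were not called, and Mylip, a ubiquitin ligase gene, fell by 0.44 (SE 0.10).

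Glycolytic enzymes were higher in 13 of 24 genes, and in 13 the mice did not overlap. Pkm, pyruvate kinase, was at 257 to 438 CPM in FAD_ABX and at 105 to 139 CPM in WT_ABX (log2 1.32, SE 0.12, adjusted p = 2.94e-09). Tpi1 (0.96) and Pfkl (0.92) followed, and the fructose transporter Slc2a5 fell by 0.27. Nuclear genes of oxidative phosphorylation were close to the background, with 8 of 78 (10.3%) higher and a median of 0.08. That count was 17 without FAD_ABX_1151, 5 without FAD_ABX_1482 and 4 when GC content was adjusted for. Of 83 cytosolic ribosomal protein genes, 21 (25.3%) were higher and 1 was lower, and in 7 of the higher ones the mice did not overlap. The median over the list, relative to the WT_ABX mean, was 0.024 in FAD_ABX_1151 and -0.114 in FAD_ABX_1460, 0.195 to 0.555 in the other 4 and -0.094 to 0.06 in WT_ABX. Rpl32 was at 58.1 to 112 CPM against 39.3 to 54.4 CPM (log2 0.89, SE 0.17). Rps13 was the one that was lower, by 0.75, a call that was lost without both mice.

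Interferon-stimulated genes formed a second broad group. Of 60 tested members, 31 were higher, none was lower and the median log2 fold change was 1.04. In 22 the mice did not overlap, and without both mice 35 were higher. Lgals3bp, a secreted scavenger receptor family protein (chr11:118392751-118402092), was at 499, 670 and 796 CPM in FAD_ABX and at 149 ± 25.5 CPM (SD, n = 5) in WT_ABX, with no overlap (4.40-fold, log2 2.14, SE 0.15, adjusted p = 9.92e-12). Ifitm3, a restriction factor that blocks viral entry, had 22.8, 49.9 and 92.2 CPM against 8.3, 4.43, 10.0, 6.62 and 4.74 CPM. The mice did not overlap, FAD_ABX_1151 was the lowest and FAD_ABX_1452 the highest (7.76-fold, log2 2.96, SE 0.47).

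Some members varied widely between the 5xFAD mice. Irf7, the transcription factor that amplifies interferon output, was at 96.0 CPM in FAD_ABX_1452, 20.2 to 37.6 CPM in the other 5 and 8.32 to 14.0 CPM in WT_ABX (log2 1.89, SE 0.51, adjusted p = 0.0115). Isg15, a ubiquitin-like protein, was at 5.36, 7.66 and 21.8 CPM and at 3.95, 3.31, 2.38, 4.07 and 2.83 CPM (log2 1.59, SE 0.47, adjusted p = 0.0212), again highest in FAD_ABX_1452. Iigp1 (3.29) and Ifi44 (3.30) were called although their mice overlapped. Without FAD_ABX_1452 Iigp1 was at 2.37 and not called (adjusted p = 0.096), and without WT_ABX_932 Ifi44 was at 9.09. The guanylate-binding proteins Gbp2 (0.16), Gbp3 (-0.07) and Gbp7 (-0.24) and the GTPases Irgm1 (0.05) and Igtp (-0.03) were not called. Oas3 had 3 reads in WT_ABX and 397 in FAD_ABX. Oas1a and Oas1g, Ifitm2 and Ifitm3, and Ifit3 and Ifit3b have closely related sequences, so reads may have been split between them.

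The interferon-stimulated response element was searched in the same promoters as its core GAAANNGAAA on both strands, with overlapping matches kept. The core was present in 821 of 27025 promoters (3.04%), in 280 of the 10200 promoters of tested genes (2.75%) and in 20 of 45 promoters matched to tested interferon-stimulated genes (44.4%). Of the 20 matched members that were higher, 9 carried it, a share close to that of the list as a whole. Members without a call, such as Gbp2 and Irgm1, carry it as well. The following windows of 80 bases show the core in capitals, 5′ to 3′ on the strand of the gene, for 4 members that rose:
Isg15, chr4:156200837-156200916, minus strand: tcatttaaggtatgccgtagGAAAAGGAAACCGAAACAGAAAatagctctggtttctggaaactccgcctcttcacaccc
Bst2, chr8:71537543-71537622, minus strand: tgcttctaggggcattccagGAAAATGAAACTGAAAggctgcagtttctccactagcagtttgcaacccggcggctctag
Oas3, chr5:120777675-120777754, minus strand: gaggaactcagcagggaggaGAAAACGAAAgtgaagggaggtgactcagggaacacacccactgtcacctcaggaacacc
Rsad2, chr12:26456513-26456592, minus strand: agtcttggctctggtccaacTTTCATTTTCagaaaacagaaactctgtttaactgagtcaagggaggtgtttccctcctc
In Isg15 and Bst2 several cores overlap, and in Rsad2 the core lies on the opposite strand. Bst2, the tetherin gene, was at 74.9 to 163 CPM in FAD_ABX and at 52.6 to 59.4 CPM in WT_ABX (log2 1.03, SE 0.16, adjusted p = 2.92e-05). Rsad2 (viperin) ranged from 3.84 CPM in FAD_ABX_1482 to 37.2 CPM in FAD_ABX_1452 and rose by 2.79 (SE 0.81).

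Antigen presentation genes of class I were higher in 13 of 22 tested members, with none lower and a median of 0.40. H2-D1, a classical class I heavy chain (chr17:35262730-35267499), was at 945, 1115 and 1719 CPM in FAD_ABX and at 493, 353, 363, 351 and 418 CPM in WT_ABX (log2 1.63, SE 0.13, adjusted p = 4.19e-10). H2-K1 rose by 1.06, the transactivator Nlrc5 by 1.89 and the light chain B2m by 0.54. H2-Q6 (2.15) and H2-Q7 (2.36) are close copies of each other, so their split is uncertain.

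Class II genes showed the largest folds of any antigen presentation gene and also the widest spread between 5xFAD mice. Of 10 tested members, 7 were higher and none was lower, with a median of 1.86. H2-Aa, the class II alpha chain (chr17:34282744-34287827, minus strand), had 14.8 CPM in FAD_ABX_1151, 232 in FAD_ABX_1452, 64.0 in FAD_ABX_1453, 239 in FAD_ABX_1455, 117 in FAD_ABX_1460 and 151 in FAD_ABX_1482, and 0.687, 0.661, 0.951, 2.77 and 3.26 CPM in WT_ABX. The groups did not overlap (log2 6.25, SE 0.81, adjusted p = 1.58e-06), and FAD_ABX_1151 was the lowest of its group. H2-Eb1 (6.23) and H2-Ab1 (4.57) had the same order at the low end, with FAD_ABX_1151 at 13.2 and 38.6 CPM. Cd74, the invariant chain, had 132 CPM in FAD_ABX_1151, 333 to 1028 CPM in the other 5 and 13.7 to 41.2 CPM in WT_ABX (24-fold, log2 4.58, SE 0.54). Relative to the WT_ABX mean, the median over the list was 0.43 in FAD_ABX_1151 and 1.66 to 2.27 in the other 5 on the log2 scale. Ciita, the class II transactivator, was at 0.395 CPM in FAD_ABX_1151 and at 1.63 to 4.94 CPM in the other 5, against 0.163 to 0.626 CPM (log2 3.03, SE 0.77). All 7 class II calls were kept without both mice, and H2-DMb1 was called in addition.

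Markers of border-associated macrophages, which sit at the meninges and around vessels, were higher as well. Of 11 markers, 10 were higher in FAD_ABX and 10 did not overlap, with a median log2 fold change of 7.41, or 7.15 with genes at 0 in WT_ABX placed at their lower bound. Cd163, the haemoglobin scavenger receptor, had 106, 625, 699, 697, 245 and 354 reads in the 6 FAD_ABX mice, in the same order as above, and 0 reads in each WT_ABX mouse. Lyve1 had 35, 661, 232, 293, 112 and 105 reads against 0 in WT_ABX, and was at least 387-fold higher over the group. Mrc1, the mannose receptor, was at 13.6, 97.0, 51.2, 74.9, 30.8 and 36.2 CPM against 3.21 to 5.17 CPM (11.6-fold, adjusted p = 5.42e-06). F13a1 had 6.60 to 69.3 CPM, while WT_ABX_932 had 0.264 CPM and the other 4 WT_ABX mice had 0. In each of these 4 genes, as in H2-Aa, H2-Eb1 and Cd74, FAD_ABX_1151 was the lowest of the 6. The order otherwise differed between them, with FAD_ABX_1453 the highest for Cd163 and the lowest but one for H2-Aa. The summed level of the list was 588 to 877 CPM in FAD_ABX and 405 to 580 CPM in WT_ABX, a sum dominated by Stab1, which was not called (0.27, adjusted p = 0.242). Cd163, Lyve1 and Cd209f were at 0 in all WT_ABX mice. The part of these markers in the class II, chemokine and Cd36 results was not tested. The chemokine gene Ccl8, listed at 0 in WT_ABX, had 0, 10.4, 2.14, 6.02, 0.181 and 1.56 CPM in the 6 FAD_ABX mice, and the receptor gene Tlr8 was also listed at 0 in WT_ABX and had 0.289 to 5.32 CPM.

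**Figure D4:**
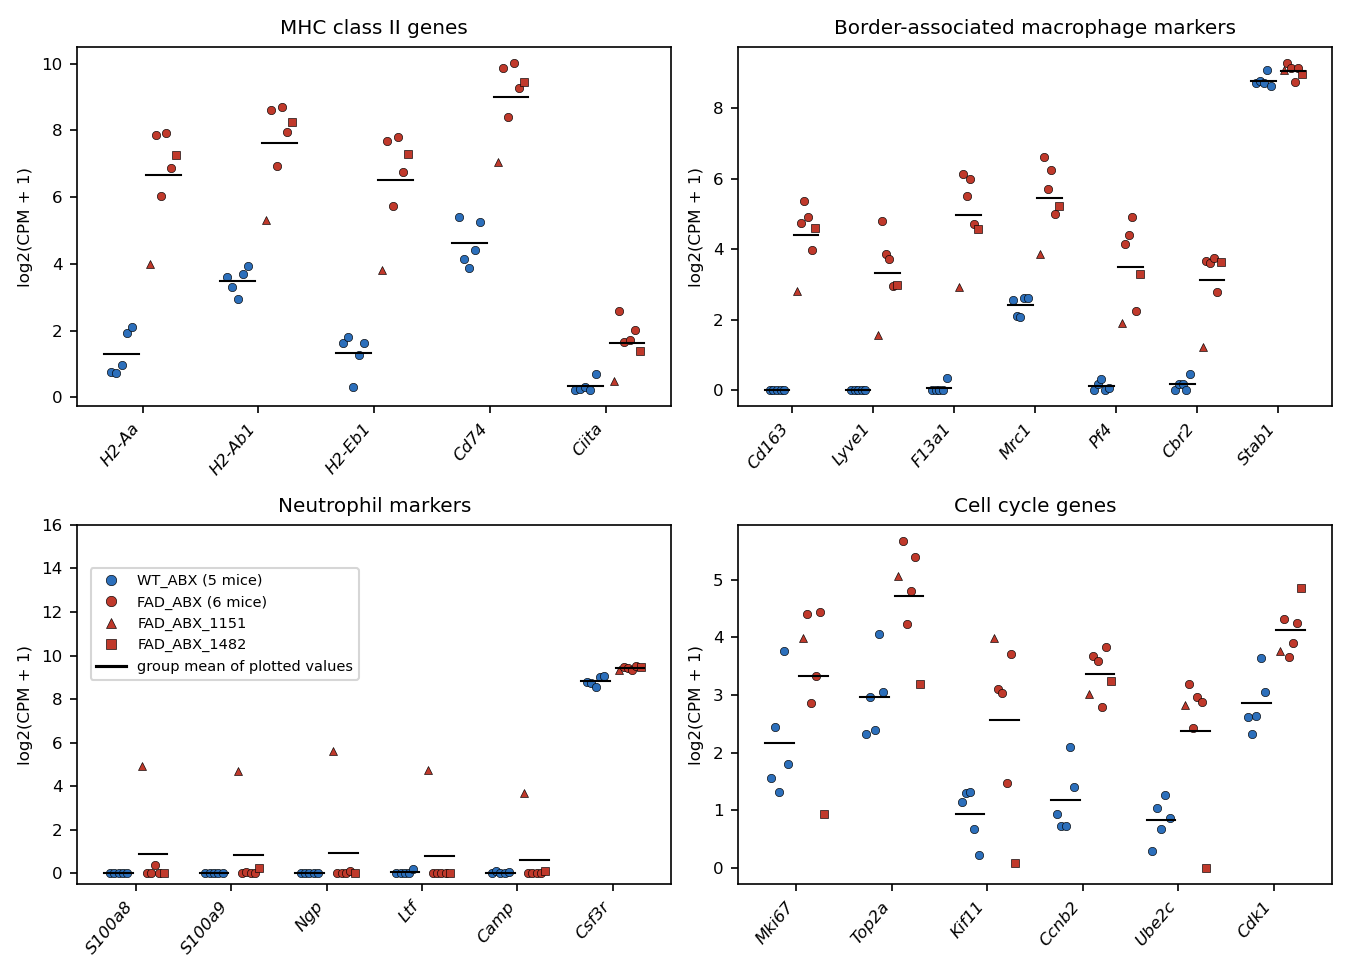
Each point is one mouse on a log2(CPM + 1) scale for 4 gene groups; blue is WT_ABX, red is FAD_ABX, the triangle is FAD_ABX_1151, the square is FAD_ABX_1482 and bars are means of the plotted values. FAD_ABX_1151 is the lowest red point for H2-Aa, Cd74, Cd163 and Lyve1 and the only one well above 0 for S100a8, Ngp and Ltf, and FAD_ABX_1482 is the lowest for Mki67, Top2a and Kif11.

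Most neutrophil marker calls rested on one mouse. The sort used a gate against Ly6C and Ly6G, surface proteins of monocytes and neutrophils. With all mice, 8 of 9 tested markers were higher, and without FAD_ABX_1151 and FAD_ABX_1482 only 2 were. FAD_ABX_1151 had a read in 9 of the 14 markers and the other 5 FAD_ABX mice in 2 to 5. The 3 FAD_SPF mice, whose secondary labels share the style of FAD_ABX_1151, had a read in 9, 13 and 10 markers, and 8 were higher in FAD_SPF than in WT_SPF. Of all 15298 tested genes, 571 were higher in that comparison. FAD_ABX_1151 had 531 reads of S100a8, 850 of Ngp and 461 of Ltf, while the other 5 FAD_ABX mice had 0 to 7, 0 to 1 and 0, and the WT_ABX mice had 0, 0 and 0 to 5. Chil3, a monocyte and neutrophil gene, had 147 reads in the same mouse and 0 in the other 10. Csf3r, which was higher with no overlap (0.60, SE 0.08), carried most of the summed level of the neutrophil list, 646 to 818 CPM in FAD_ABX and 394 to 536 CPM in WT_ABX, and 10 of 14 markers were at 0 in all WT_ABX mice.

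Monocyte markers were higher in 3 and lower in 1 of 6 tested genes, with sums of 18.3 to 55.7 CPM in FAD_ABX and 5.3 to 11.0 CPM in WT_ABX. Ccr2, the receptor for monocyte entry, had 8.69, 44.1, 13.0, 51.5, 21.6 and 12.8 CPM in FAD_ABX and 1.37, 2.84, 7.61, 8.14 and 7.91 CPM in WT_ABX (log2 2.17, SE 0.49, adjusted p = 0.0028). Neuron, astrocyte and oligodendrocyte markers had no call in either direction. The sums of all 3 lists overlapped, at 2.81 to 10.2 and 3.10 to 10.4 CPM for neurons and 154 to 196 and 163 to 167 CPM for oligodendrocytes. No erythrocyte marker passed the filter, 1 of 2 tested markers was higher in each of the B cell and the T and NK cell lists, and the endothelial and the oligodendrocyte precursor lists had 1 higher and 1 lower each. Without FAD_ABX_1151 and FAD_ABX_1482 the calls of Chil3 and Vcan were lost from the monocyte list, Vcan from the precursor list, and both Pecam1 and Flt1 from the endothelial list, while Map2, Aldh1l1 and Mbp were called from the neuron, astrocyte and oligodendrocyte lists.

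Chemokine genes were higher in 10 of 27 tested members and lower in 1. Ccl3 (MIP-1 alpha, chr11:83647844-83649355) was at 151 ± 35.7 CPM (SD, n = 6) in FAD_ABX and at 26.0, 13.7, 22.5, 19.1 and 14.4 CPM in WT_ABX, a 7.92-fold rise (log2 2.98, SE 0.28, adjusted p = 4.52e-09). Ccl4 (2.14) and Cxcl14 (5.19, and 8.16 without WT_ABX_923) also rose with no overlap. Among 44 tested genes of cytokines, NF-kappaB and the inflammasome, 6 were higher and 5 were lower (13.6% and 11.4%), with a median of -0.06. Only 3 were higher without FAD_ABX_1482, WT_ABX_910 or WT_ABX_911, and 3 were lower without WT_ABX_909 or WT_ABX_910. Il1b was at 2.35 to 16.6 CPM and at 0.198 to 16.0 CPM (0.83, SE 0.71, adjusted p = 0.487), and Tnf at 2.19 to 7.51 CPM and 1.74 to 13.7 CPM (-0.35, SE 0.46, adjusted p = 0.683). The interleukin 1 antagonist Il1rn rose by 3.21 and Tlr2 by 0.40. Il18 fell by 0.58 and the TLR4 co-receptor Ly96 by 0.75 on the log2 scale, and the lower call of Il6 (-0.68) was lost without both mice.

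Cell cycle genes were higher in 32 of 48 members and lower in 1, with a median of 1.51, although in only 10 the mice did not overlap. The lowest of the 5xFAD mice was FAD_ABX_1482, whose median over the list was 0.35 relative to the WT_ABX mean, against 1.26 to 2.11 in the other 5. Ccnb2, cyclin B2 of mitosis (chr9:70407689-70421554), was at 5.94, 9.80 and 13.3 CPM in FAD_ABX and at 0.916, 0.661, 0.654, 3.26 and 1.65 CPM in WT_ABX (6.64-fold, log2 2.73, SE 0.37, adjusted p = 3.91e-06). Kif11, a mitotic kinesin, had 0.0651 CPM in FAD_ABX_1482 and 1.77 to 14.8 CPM in the other 5, against 0.165 to 1.49 CPM (2.92, SE 0.70). Mki67, the proliferation antigen, had 0.912 CPM in FAD_ABX_1482, 6.29 to 20.7 CPM in the other 5 and 1.49 to 12.5 CPM in WT_ABX, and was not called with all mice (1.40, SE 0.54, adjusted p = 0.0813). It was called without both mice (1.62, adjusted p = 0.0253, with 0.199 the highest over all alternatives). The replication licensing factor Mcm2 did not show this split, with 24.8 to 35.0 CPM against 6.64 to 15.2 CPM (1.49, SE 0.22). The inhibitor of the cycle Cdkn1b (p27) was lower by 1.00 (SE 0.27, adjusted p = 0.0112). Without both mice 35 cell cycle genes were higher.

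Of 32 transcription factors of microglia, 5 were higher (3 without WT_ABX_911) and 4 were lower. Bhlhe40, a repressor induced in activated macrophages (chr6:108660629-108666925), was at 22.7, 27.9 and 50.8 CPM in FAD_ABX and at 0.802, 2.12, 1.78, 0 and 0.626 CPM in WT_ABX (31.4-fold, log2 4.97, SE 0.47, adjusted p = 4.65e-09). Maf was at 141 to 248 CPM against 312 to 465 CPM (-0.76, SE 0.12). The lineage factor Spi1 (0.03) and the lysosomal regulators Tfeb (0.13) and Tfe3 (0.10) were not called. Of 22 immediate early genes, which also respond to cell isolation, 4 were higher and 1 was lower. Egr2 (1.99, SE 0.35) and Atf3 (1.51, SE 0.21) were above every WT_ABX mouse, while Fos (2.16, adjusted p = 0.0724) and Jun (0.14) were not called, and Klf2 fell by 1.04. Without both mice Fos was called (2.69, adjusted p = 0.0142). Relative to the WT_ABX mean, the median over the list was -0.22 in FAD_ABX_1151 and 0.18 to 0.40 in the other 5. In the TGF-beta pathway, 3 of 25 members were higher and 3 were lower. Without both mice 2 were higher and 4 were lower, and Itgb8, listed at 0 in WT_ABX, was no longer tested. The receptor Tgfbr2 rose by 0.49 and the integrin subunit Itgb5 by 0.51, and the BMP and activin receptors Bmpr2 (-0.70), Acvr2a (-0.75) and Acvr1 (-0.51) fell.

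Of 34 iron and antioxidant genes, 11 were higher and 3 were lower. Without both mice the higher call of Prdx1 and the lower call of Ncf1 were lost and Gpx1 was called. Cybb, the catalytic subunit of the phagocyte NADPH oxidase, was at 53.7 to 92.3 CPM in FAD_ABX and at 0.832 to 6.13 CPM in WT_ABX (21.8-fold, log2 4.45, SE 0.49, adjusted p = 9.67e-08). The ferritin chains Ftl1 (0.86) and Fth1 (0.83) rose, while Slc40a1 (ferroportin, the iron exporter) fell by 0.51 and Bach1, a haem-sensing repressor, fell by 0.92. Slc40a1 was at 190 CPM in FAD_ABX_1482 and at 270 to 350 CPM in the other 5, against 402 to 471 CPM. Of 19 tested growth factors and their receptors, 9 were higher and none was lower, and besides Igf1, Axl, Spp1, Csf1 and Gpnmb these included Csf2ra (0.89), Grn (0.83) and Gas6 (0.66), a ligand of AXL.

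Among genes with at least 3 log2 CPM on average and no overlap between mice, the 12 largest rises included 5 that were in none of the lists. Mamdc2 had 12.9 to 31.2 CPM in FAD_ABX and no read in WT_ABX, and was at least 573-fold higher. Baiap2l2 had 26.1, 29.9 and 39.7 CPM in FAD_ABX and 0, 0.0661, 0.0595, 0 and 0.132 CPM in WT_ABX, on 6 reads in the whole WT_ABX group (log2 8.87, SE 0.52, adjusted p = 3.15e-13, and 9.77 without WT_ABX_932). Efr3b (6.86), Etl4 (6.28) and Actr3b (5.81) had between 8.17 and 34.6 CPM in each 5xFAD mouse and at most 1.19 CPM in a WT mouse. Without WT_ABX_911 Efr3b was at 7.58 and Etl4 at 9.92.

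The largest falls were smaller in size than the largest rises. Klrd1, an NK cell receptor gene (chr6:129591782-129598775), was at 2.21, 5.51 and 13.6 CPM in FAD_ABX and at 26.0, 22, 23.3, 15.1 and 15.8 CPM in WT_ABX (log2 -1.64, SE 0.35, adjusted p = 0.00165). Fcrl1, an Fc receptor-like gene, was at 26.8 to 45.1 CPM against 69.8 to 93.2 CPM (-1.21, SE 0.12). Malat1, a long noncoding RNA of the nucleus (chr19:5795690-5802672), was at 461, 976 and 1232 CPM in FAD_ABX and at 1712, 2107, 2349, 1824 and 1311 CPM in WT_ABX (SE 0.19 on the log2 scale, adjusted p = 0.0004), a level 2.00-fold higher in WT_ABX, with FAD_ABX_1460 the lowest. The actin crosslinker Actn1 (-1.30), the CaMKII inhibitor Camk2n1 (-1.19), Cmtm8 (-1.06), Plpp3 (-1.01), Tmem8c (-0.99), Dlc1 (-0.97), Rras2 (-0.94) and Klf2 were also among the 12 largest falls. Rras2 had 9.77 CPM in FAD_ABX_1482 and 21.7 to 28.1 CPM in the other 5, and was still called without both mice (-0.86).

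Most calls did not need FAD_ABX_1151 or FAD_ABX_1482. Without both, 1457 of 15278 genes (9.54%) were higher and 855 (5.6%) were lower, from 4 FAD_ABX mice in a fit of 26. Of the genes called with all mice, 2196 could be tested again, 1896 were called in both fits, all with the same direction, and 300 lost their call, 149 higher and 151 lower. Among the losses Lcn2 (-1.36), Camp (-2.10) and Ltf (-3.13) turned below 0 and Chil3 was at 0. A further 11 were no longer tested and 414 genes were gained, besides 2 that were tested only without both mice. Among the named losses, Ulk4 had 20.2 CPM in FAD_ABX_1482 and 5.86 to 11.7 CPM in the other 5, and its log2 fold change dropped from 1.26 to 0.96. Nes, Myh10, Rgp1 and C530043K16Rik were also lost. Among the gains besides Mki67, Camk2b was at 19.5 CPM in FAD_ABX_1151 and 1.63 to 13.0 CPM in the other 5, and its change went from -0.72 to -1.23. Ccl12, Ccdc157 and Enpp5 were gained as well. Of the pathway lists in the bar chart with at least 5 called members, none had a count that moved by over 1.5 times without both mice, while leaving out 1 mouse moved the counts given above for cholesterol, cytokine, transcription factor and oxidative phosphorylation genes by more. Among the marker lists, the neutrophil count went from 8 to 2.

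FAD_ABX_1151 was also set alone against the 5 WT_ABX mice, which share its style of secondary label, with its spread taken to be that of the other groups. Of 17027 genes tested, 252 (1.48%) were higher and 29 (0.17%) were lower. Among them were 32 of 41 DAM genes, all higher, and 3 of 34 homeostatic genes, all lower. Of 37 lysosomal hydrolases 12 were higher, of 60 interferon-stimulated genes 3, of 11 border-associated macrophage markers 4, of 9 neutrophil markers 7 and of 10 class II genes none. A single mouse allows few calls, and a gene without one is not shown to be alike. The part of the label style in these counts was not tested.

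The 5xFAD effect under antibiotics was set beside that of SPF mice by the difference of the 2 effects. No gene passed an adjusted p under 0.05 (0 of 15298, 0.0%) with edgeR, 1032 genes (6.75%) had an unadjusted p under 0.05, DESeq2 called 1 gene and limma-voom called 14. Without both mice edgeR called 1 gene and limma-voom 101. The SPF comparison rested on 3 FAD_SPF mice, and a p that misses the threshold does not show that the effects were alike. The smallest p belonged to Lgmn, which was not called under antibiotics (0.04) and lower in SPF 5xFAD mice (-0.62), a difference of 0.66 (SE 0.14, adjusted p = 0.704, and 0.0142 without both mice). Lgmn was at 3080 ± 238.3 CPM (SD, n = 3) in FAD_SPF and 4730 ± 506 CPM (n = 5) in WT_SPF. For Arhgef10l, Aars, C4b and Srebf1, the next in order, the adjusted p was 0.704 as well. The 41 DAM genes had a median log2 fold change of 2.09 in SPF mice, 2.52 in GF mice and 1.63 under antibiotics, and all 41 were called in each housing. Of all 15298 tested genes, 571 were higher and 128 lower in SPF 5xFAD mice, and 1442 higher and 949 lower in GF 5xFAD mice.

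Against germ-free mice the effect differed in 269 genes (1.76%), 140 with a higher and 129 with a lower signed value under antibiotics. This count was sensitive to single libraries, from 85 genes without WT_GF_229 to 491 without the library labelled FAD_GF_201. GF mice came from another facility, so facility and colonisation cannot be told apart, and the library labelled FAD_GF_201 carries a WT name in its secondary label. Among DAM genes the effect was smaller under antibiotics for 5 of 41 and larger for none. These were Tyrobp (0.95 against 1.83, difference -0.88, SE 0.19, adjusted p = 0.0157), B2m (-1.07), Fth1 (-0.73), Ccl6 (-0.88) and Cox6a2 (-1.32). Apoe (3.67 and 3.53), Trem2 (0.59 and 0.86) and Cst7 (6.36 and 7.10) gave no called difference. Of 78 oxidative phosphorylation genes 9 had a smaller effect under antibiotics, among them Ndufa1 (0.68 against 2.05), and of 83 ribosomal protein genes 6 did. Cx3cr1 was lower in GF 5xFAD mice (-0.57) and at -0.08 under antibiotics, a difference of 0.49 (SE 0.13, adjusted p = 0.0452) that lost its call in 13 of 20 fits without 1 mouse.

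**Figure D5:**
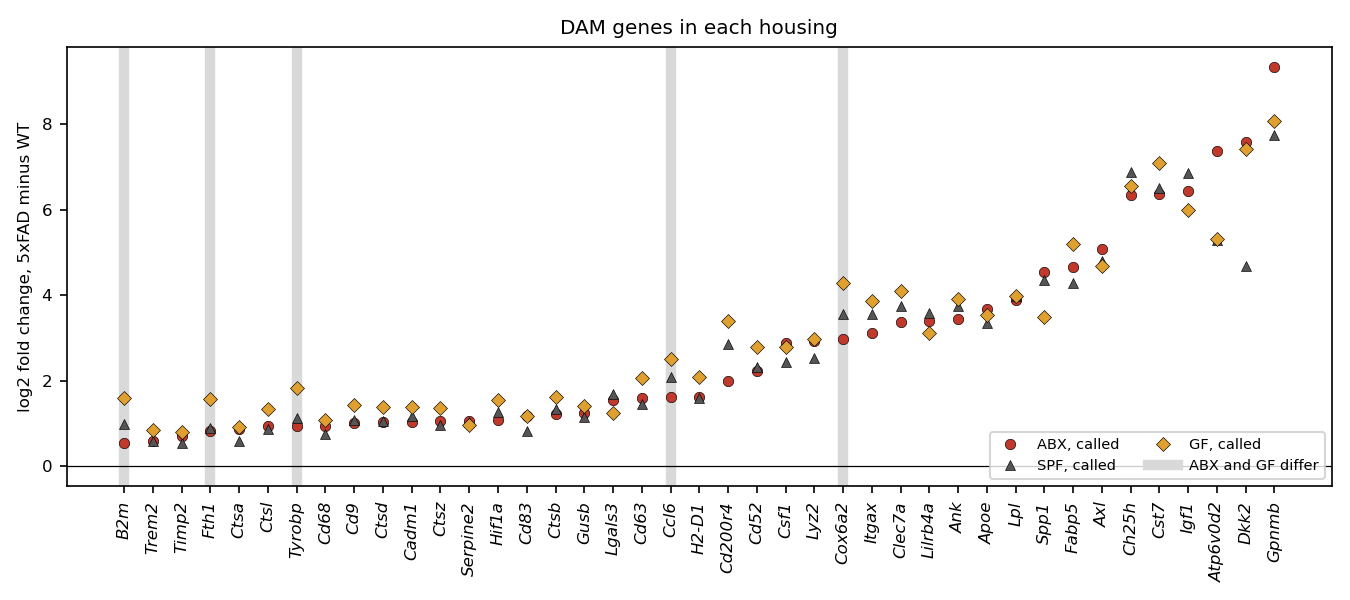
For 41 DAM genes the log2 fold change of 5xFAD over WT is shown under antibiotics (red circles), in SPF mice (grey triangles) and in GF mice (yellow diamonds), ordered by the value under antibiotics; all points were called at an adjusted p under 0.05, and grey bands mark the 5 genes whose effect differed between antibiotics and GF. In those 5 genes (B2m, Fth1, Tyrobp, Ccl6 and Cox6a2) the red circle lies below the diamond, while Gpnmb, Dkk2 and Atp6v0d2 are fitted values of genes without a read in WT_ABX and are no bound.

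Class II and border-associated macrophage genes were among those with a larger effect under antibiotics than in GF mice. Of 10 class II genes 4 had a larger effect under antibiotics, H2-Eb1 by 5.53 (SE 0.97, adjusted p = 0.00685), H2-Aa by 5.34, H2-Ab1 by 3.33 and Cd74 by 2.97 on the log2 scale. When 1 mouse was left out, the last of these lost its call in 4 of 20 fits and H2-Ab1 in 1. H2-Aa was at 62.9 ± 38.8 CPM (SD, n = 5) in FAD_GF and at 33.4 ± 34.0 CPM (n = 4) in WT_GF, against 136 ± 89.6 CPM (n = 6) and 1.67 ± 1.25 CPM (n = 5) under antibiotics. The WT means were thus also unlike between housings, but the WT_GF mice varied widely and this difference was not tested. Of 11 border-associated markers 9 had a larger effect under antibiotics, with F13a1 larger by 8.09 (SE 1.41; 11.82 without WT_ABX_932 and 6.52 without WT_GF_229), and none of the 11 was at 0 in all WT_GF mice, with 5.86 ± 8.01 CPM of F13a1. In SPF mice 7 of 11 border-associated markers, with a median of 4.35, and 4 of 10 class II genes were higher in 5xFAD. Over all 15298 tested genes 571 were higher in that comparison. Cd163, Lyve1 and Cd209f were at 0 in all WT_SPF mice as well. No member of either list passed the test of the difference between antibiotics and SPF. Hmgn3, a nucleosome-binding protein gene, was not called under antibiotics (-0.07) and rose by 1.28 in GF 5xFAD mice, a difference of -1.35 (SE 0.22, adjusted p = 0.00685). Hsd17b11 fell by 0.92 under antibiotics and was at 0.29 in GF mice, a difference of -1.21, and the nucleoside transporter Slc29a3 was at 0.30 under antibiotics and fell by 0.61 in GF mice, a difference of 0.91.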

How the data were processed

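RNA of sorted microglia from 28 mice was sequenced, and 11 of them (6 FAD_ABX, 5 WT_ABX) form the comparison described. The authors deposited whole-number counts of reads per gene, not normalized. The submitters' processing notes name CASAVA 1.8.2, FastQC 0.11.8, STAR 2.7.2, featureCounts 1.6.2, limma 3.40.6 and edgeR 3.26.7. Those notes name a human build, while the methods name GRCm38, and 46484 of the 48587 deposited gene names were found in GENCODE M21, 40835 of them with identical coordinates, so GRCm38 coordinates are given. The libraries do not mark strand, so overlapping and antisense genes share reads. The 92 spike-in entries were dropped. The deposited table also gives a gene length, another value that was used only for an alternative.

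From the deposited counts, genes were filtered (minimum count 10, minimum total count 15, 15298 kept), scaled by TMM and tested with the quasi-likelihood test of edgeR 4.0.16 (R 4.3.3) over all 28 mice, with a term for each of the 6 groups, Benjamini-Hochberg adjustment over all tested genes and a threshold of 0.05. Adjusted p-values come from this test unless another tool is named. Log2 CPM values of single mice use a prior count of 2. They underlie the permutation tests, the overlap of mice and the list medians by mouse. The fitted log2 fold changes do not use that prior count. Alternatives were DESeq2 1.42.0, limma 3.58.1 with voomWithQualityWeights (the study's own choice), other scalings and filters, GC and length offsets, a stricter threshold of 0.01, FAD_ABX_1151 as the one FAD_ABX mouse, the groups compared alone, and each mouse or the pair FAD_ABX_1151 and FAD_ABX_1482 left out. Single genes were also tested by exact two-sided permutation of the mice. Scripts were tested on simulated data. For genes at 0 in WT_ABX the fold is a lower bound against 3 counts over the group. Counts of mice of one group differed by more than sampling noise, with a chi-square per degree of freedom of at least 12.3.

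The members and lists were chosen with earlier results of these data known. Named genes were the 12 largest rises and falls among called genes whose mean level was 3 log2 CPM or more and whose mice did not overlap (predicted genes, pseudogenes and near-identical copies left out), up to 6 called members of each list, fixed microglial genes, the 5 genes with the smallest p for each difference between housings, the 5 largest gains and losses without the pair, and cell type markers. Other list members named beside them, most of them not called, were chosen after their values were seen. Some genes that the rule names are not reported here. Promoter sequences are from RefSeq (GRCm38.p6).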

Additional observations from a re-analysis of the deposited data

Results flagged for a closer look

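One mouse stood apart from the rest of its group in 11 of 134 sets of values, by the gap to its nearest neighbour relative to the range. The cut-off is meant to be passed by about 5% of sets by chance. The sets share the same mice and are not independent, and the chance rate here was not computed. FAD_ABX_1151 was low for Lgmn at 2950 CPM, and its medians relative to the WT_ABX mean were low for the class II list (0.435) and for immediate early genes (-0.22). FAD_ABX_1455 was low for Sall1 at 517 CPM, FAD_ABX_1460 was low for Camk2n1 at 4.46 CPM and high for the lysosomal hydrolases at 0.742, and FAD_ABX_1482 was low for Rras2 at 9.77 CPM. WT_ABX_932 was high for F13a1 at 0.264 CPM, and WT_ABX_911 was high for Etl4 at 1.19 CPM and low for H2-Eb1 at 0.238 CPM and for the growth factor list at -0.153.

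The 5xFAD effect differed between antibiotics and germ-free housing for 18 of the genes named by the rule, not counting those named only as cell type markers. As signed values, effects were lower under antibiotics for Ndufa1 (-1.37), Hmgn3 (-1.35), Hsd17b11 (-1.21) and Tyrobp (-0.88). Of these, Hsd17b11 fell under antibiotics and not in germ-free mice, so its effect was of larger size under antibiotics. Signed values were higher for F13a1 (8.09), H2-Eb1 (5.53), H2-Aa (5.34), H2-Ab1 (3.33), Pltp (3.17), Cd74 (2.97) and C4b (2.95). The same held for Arhgef10l (1.07), Slc29a3 (0.91), Srebf2 (0.73), Aars (0.62) and Cx3cr1 (0.49). Of these, Slc29a3 and Cx3cr1 fell in germ-free 5xFAD mice, where their effect was of larger size than under antibiotics. Cd163 (11.62) and Tlr8 (10.3) also had higher values, but these are fitted values of genes without a read in WT_ABX and give no bound. Of 20 fits that each left out 1 mouse, Srebf2 lost its call in 16, Cx3cr1 in 13, Tlr8 in 11, Cd74 in 4, and H2-Ab1 and Pltp in 1 each. Germ-free mice came from another facility, which cannot be told apart from housing.

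Spike-in entries, which no comparison used, had reads in the ABX libraries, 11 at most, in FAD_ABX_1453.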

How the results depend on the processing

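The 2207 genes called under antibiotics were 1321 (951 higher, 370 lower) in a fit of the groups compared alone, 1138 (833 and 305) at an adjusted p under 0.01 and 281 (252 and 29) with FAD_ABX_1151 as the one FAD_ABX mouse (chosen after seeing the data). With library size alone 1311 genes were lower, and leaving out 1 mouse gave 452 (without WT_ABX_911) to 1058 lower. GC offsets called 1846 genes, 594 of them lower. Over genes the log2 fold change had a Spearman rho of 0.3 with GC content, and of 0.0 after GC offsets. Why it followed GC content was not tested. For the difference from SPF mice, 0 genes became 1 with DESeq2, 14 with limma-voom, 1 without FAD_ABX_1151 and FAD_ABX_1482, 101 with limma-voom without both (chosen after seeing the data), and 0 to 1 without 1 mouse. For the difference from germ-free mice, 269 genes became 576 with DESeq2 (303 higher, 273 lower), 67 in the groups compared alone (42 and 25) and 22 at 0.01 (13 and 9). Lower genes were 69 with library size alone and 68 without a low-count filter. Leaving out 1 mouse gave 85 (without WT_GF_229) to 491 (without the library labelled FAD_GF_201) in all, 52 to 246 higher and 33 to 245 lower. Of 157 named genes called, not counting genes named only as cell type markers, 1 changed sign, Cr1l, at 0.03 with GC offsets (adjusted p = 0.865). Over all called genes 4 lost or turned their sign without FAD_ABX_1151 and FAD_ABX_1482. The cause was not tested. Of the 157, GC offsets lost 14, limma-voom 14 and leaving out 1 mouse 6 to 23, and no list median at least 0.1 from 0 changed sign. Of 24 list counts of 5 or more, 6 moved by over 1.5 times in the groups compared alone, 5 with at least 10 counts in every library, 7 at 0.01, 2 with library size alone, 1 with GC offsets, and 0 to 3 without 1 mouse. No paired analysis was possible because mice of different groups share no number.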
